A study of Rattus norvegicus with 9 samples.

Results

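Adipose-derived mesenchymal stem cells (ASCs) of the epididymal fat (EASCs) were compared gene by gene with those of the perirenal fat (PASCs), the 2 visceral depots of the series. The samples were taken by their labels, and 6 of the 9 samples belong to this comparison, 3 of EASCs and 3 of PASCs. The 3 remaining samples are ASCs of the subcutaneous fat (SASCs), cut from the groin, which are given as a further level. All cells came from male Sprague Dawley rats aged 6 weeks, were released from the fat by collagenase type I, selected by attachment to the dish, grown in medium with fetal bovine serum, and lysed at passage 3 for RNA sequencing. EASCs were grown from fat beside the testis and PASCs from fat beside the kidney, and the sources name no transgene or drug in either. The methods name 6 rats and 6 replicate wells in each group, while 3 samples a group were sequenced here, and nothing says that they came from separate animals or cultures, so the p-values measure the spread between these samples, which may be technical.

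Fat depots arise at different places along the body, and cultured stromal cells can keep part of a positional code of Hox, T-box, and other homeobox transcription factors. Epididymal fat lies in the peritoneal cavity beside the gonad and is covered by mesothelium, while perirenal fat lies behind the peritoneum around the kidney and adrenal gland. ASCs also secrete growth factors, cytokines, and the proteins of the extracellular matrix, and can take on contractile genes in culture.

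The samples held 18678082 to 30299032 counts in EASCs and PASCs, of which rRNA genes took 28.5% ± 12.2 (SD, n = 3) in EASCs and 27.6% ± 5.28 (SD, n = 3) in PASCs. EASCs sample 3 had the highest share, 40.3%. Levels are given as CPM, the read counts of a gene brought to a common library size of 1 M counts, after scaling by TMM, a factor that is little affected by a few abundant genes, and means are ± SD over 3 samples. Genes are called higher or lower in EASCs, or DEGs, where they differed from PASCs by more than 2-fold with an adjusted p under 0.05 in edgeR's quasi-likelihood test. Of all genes tested 5.19% were higher, 2.2% lower, and 7.39% called in either direction, and 70.2% of the DEGs were higher, which are the background for the counts of each list.

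The mesenchymal label was checked first. All 12 mesenchymal surface markers in the table were tested, and their summed level was 5174 to 5245 CPM in EASCs and 3874 to 4054 CPM in PASCs. Of the 12, 4 were higher in EASCs and 8 not called, with a median log2 fold change of 0.46. Mcam (CD146), also a pericyte marker, was at 66.9 ± 0.6102 CPM in EASCs and 17.5 ± 2.33 CPM in PASCs, and Eng (CD105), also an endothelial marker, at 204 ± 7.405 and 89.8 ± 3.198 CPM. Of those not called, Cd44, the hyaluronan receptor, was at 236 ± 6.56 CPM in EASCs and 253 ± 7.64 CPM in PASCs, and Thy1 (CD90) at 404 ± 6.98 and 776 ± 30.4 CPM, within 2-fold (-0.94 ± 0.053, log2, SE).

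Markers of other cells were also found, and several were higher in EASCs. Of 11 endothelial markers tested, 9 were higher in EASCs and 2 not called, with a median log2 fold change of 1.97. The summed level of the list was 67.0 to 73.8 CPM in EASCs, 43.3 to 49.0 CPM in PASCs, and 97.7 to 102 CPM in SASCs. Markers that were not called hold most of the PASCs sum, so the sums show a smaller gap than the called markers do. Of 14 leukocyte and macrophage markers tested, 6 were higher, with sums of 291 to 299 CPM in EASCs, 160 to 163 CPM in PASCs, and 101 to 111 CPM in SASCs, and the lymphocyte markers Cd3e and Cd79b were at 0 in both visceral groups. Of 7 mural cell markers, 5 were higher, with sums of 468 to 498 CPM and 150 to 164 CPM in EASCs and PASCs. Most of the EASCs sum, and most of the gap between the groups, comes from Des and Myh11, contractile genes described below. The kidney markers Umod, Slc12a1, Nphs1, and Aqp2 and the epididymal and testicular markers Defb1, Lcn5, Crisp1, Adam7, Cst8, Ddx4, Prm1, and Tnp1 had 0 counts in all 6 samples. All 12 epididymal and testicular markers summed to 46.8 to 47.9 CPM in EASCs, 32.1 to 39.0 CPM in PASCs, and 6.53 to 8.20 CPM in SASCs. Only 1 of them was tested, and it was not called (0.45 on the log2 scale, adjusted p under 0.05 in edgeR). The summed level of all 12 kidney markers was 38.5 to 47.8 CPM in EASCs, 96.3 to 112 CPM in PASCs, and 235 to 242 CPM in SASCs, and the water channel Aqp1 alone was at 39.3 ± 4.16, 104 ± 8.55, and 239 ± 3.701 CPM. Of the 4 kidney markers tested Aqp1 was lower, and Lrp2 (megalin) was higher (2.09 ± 0.44, log2, SE) at 1.84 ± 0.291 CPM in EASCs and 0.447 ± 0.294 CPM in PASCs. Of 4 Schwann cell and melanocyte markers tested, the lower genes included S100b (-2.22 ± 0.15, log2, SE), with sums of 3.69 to 3.98 CPM in EASCs and 9.94 to 12.3 CPM in PASCs. Fewer cells of a type and less RNA per cell cannot be told apart in these bulk samples.

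Of 14770 genes tested, 766 (5.19%) were higher in EASCs than in PASCs and 325 (2.2%) lower. The median log2 fold change over all genes was -0.0065 and the median absolute change 0.20, so most genes differed little between the depots. In 35 of the 1091 DEGs the samples of the groups overlapped, and over all genes tested the samples of EASCs and PASCs did not overlap in 41.2%. The SASCs level lay below both visceral groups for 318 of the 766 DEGs higher in EASCs and above both for 226. Of the 325 lower in EASCs, SASCs lay above both groups for 168 and below both for 72.

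**Figure D1:**
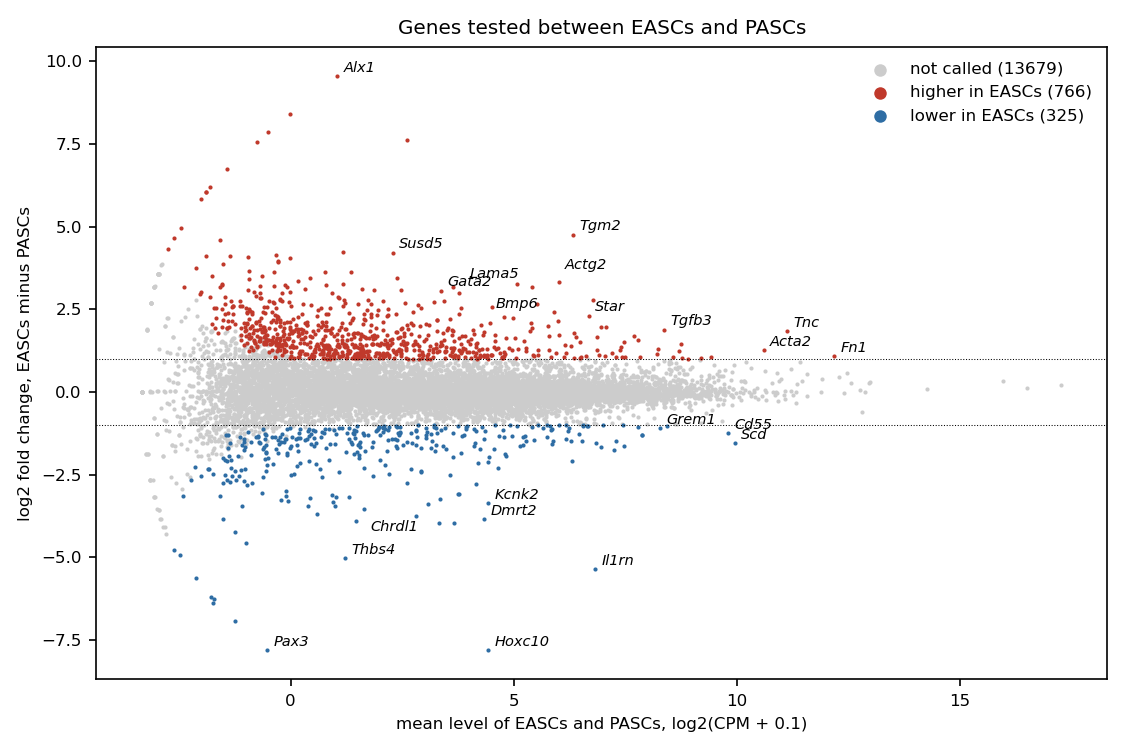
Log2 fold change of EASCs against PASCs for each of the 14770 genes tested, plotted by the mean level of the 2 groups as log2(CPM + 0.1). Red points are the 766 DEGs higher in EASCs, blue points the 325 lower, grey points all other genes, and dotted lines a 2-fold change. Hoxc10 and Il1rn lie far below the other genes of their level, and Alx1 and Tgm2 far above.

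Among the genes with the largest changes were a homeobox gene, a cytokine antagonist, and a transglutaminase. Hoxc10, a posterior Hox factor, was at 0.0418, 0.162, and 0.358 CPM in EASCs samples 1 to 3, at 40.4, 41.2, and 45.8 CPM in PASCs, and at 23.4, 26.6, and 26.2 CPM in SASCs. EASCs were near 0 and both other groups far above them, with no overlap. The gene had 1 to 8 counts a sample in EASCs, and the ratio of summed counts was 230 (95% exact counting interval 134 to 432) in favour of PASCs. The fitted change was -7.81 ± 0.19 (log2, SE), with an edgeR adjusted p of 1.04e-21, and was -8.61 without EASCs sample 3.

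Il1rn, the secreted antagonist of the interleukin-1 receptor, was at 4.48, 5.43, and 6.44 CPM in EASCs, 224, 221, and 219.8 CPM in PASCs, and 13.3, 12.7, and 14.3 CPM in SASCs. The PASCs samples stood far above all 6 others, and the change was -5.35 ± 0.085 (log2, SE; edgeR adjusted p = 7.38e-26). Tgm2, the enzyme that crosslinks fibronectin and other matrix proteins, was at 146, 159.6, and 157 CPM in EASCs, 5.2, 5.49, and 6.56 CPM in PASCs, and 6.12, 7.42, and 9.32 CPM in SASCs. Here EASCs alone were high, 27.1-fold above PASCs (log2 4.76 ± 0.10, SE; edgeR adjusted p = 5.35e-23).

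Promoter sequences from RefSeq on build GRCr8, 250 bases before to 50 after each gene's start, are printed for the 2 genes with the largest change in each direction that have an entry and at least 5 CPM in the higher group. They are shown as the starts of genes that differed most in level, and the capitals mark each CG, a feature in which broadly used and tissue-restricted promoters tend to differ. Susd5, a sushi domain gene, and Actg2, smooth muscle gamma actin, were higher in EASCs, while Il1rn and Sncg, gamma-synuclein, were lower.
Susd5 (chr8:122875303-122875602, + strand): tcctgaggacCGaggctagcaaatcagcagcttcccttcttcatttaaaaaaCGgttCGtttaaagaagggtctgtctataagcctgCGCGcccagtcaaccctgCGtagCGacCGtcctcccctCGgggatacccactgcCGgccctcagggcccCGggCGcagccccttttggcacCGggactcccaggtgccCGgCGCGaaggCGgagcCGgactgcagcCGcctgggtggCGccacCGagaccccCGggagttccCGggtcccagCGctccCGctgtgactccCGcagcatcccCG
Actg2 (chr4:117593990-117594289, - strand): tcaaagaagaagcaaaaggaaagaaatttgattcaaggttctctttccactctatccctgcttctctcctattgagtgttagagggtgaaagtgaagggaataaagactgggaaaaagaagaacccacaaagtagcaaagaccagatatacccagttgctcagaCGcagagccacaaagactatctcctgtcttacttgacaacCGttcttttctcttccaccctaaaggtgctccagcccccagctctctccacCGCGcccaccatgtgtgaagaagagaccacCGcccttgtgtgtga
Il1rn (chr3:27520072-27520371, + strand): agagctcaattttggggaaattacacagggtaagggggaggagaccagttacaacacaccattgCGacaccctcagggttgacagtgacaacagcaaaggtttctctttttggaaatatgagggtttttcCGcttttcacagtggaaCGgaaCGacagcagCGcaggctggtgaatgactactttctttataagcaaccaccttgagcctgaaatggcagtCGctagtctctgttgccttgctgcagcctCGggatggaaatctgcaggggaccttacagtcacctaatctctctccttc
Sncg (chr16:9711287-9711586, - strand): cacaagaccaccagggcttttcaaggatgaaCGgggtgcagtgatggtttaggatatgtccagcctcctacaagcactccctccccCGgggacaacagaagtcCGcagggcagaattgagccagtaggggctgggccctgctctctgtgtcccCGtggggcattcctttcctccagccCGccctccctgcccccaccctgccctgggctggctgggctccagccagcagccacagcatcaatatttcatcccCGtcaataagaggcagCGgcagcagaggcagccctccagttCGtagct
The Susd5 window holds 27 CG, more than most promoters, and the others hold 5 (Actg2), 7 (Il1rn), and 8 (Sncg), near the median of 8 over all 24206 promoters with a unique symbol. Promoters were matched for 460 of the 766 genes higher in EASCs, 174 of the 325 lower, and 8407 of the other genes tested. The median number of CG was 15 in the first, 14.5 in the second, and 21 in the genes that were not called. TATAAA, on either strand, was found in 8.48%, 14.9%, and 6.35% of them, against 14.3% of all promoters, and is in the Il1rn window. A match describes the letters only.

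Hox genes were changed cluster by cluster. Of 35 Hox genes counted, 17 were tested, and 7 were higher in EASCs and 2 lower, with a median log2 fold change of 0.42. All 7 higher genes belong to the HoxB cluster, in which the consecutive genes Hoxb2 to Hoxb8 were higher in EASCs by 1.00 to 1.88 on the log2 scale. Hoxb3 was at 19.5, 18.4, and 19.8 CPM in EASCs and 4.89, 4.67, and 6.25 CPM in PASCs, and Hoxb6 at 8.83, 8.95, and 8.09 CPM and 3.17, 3.18, and 2.91 CPM. The groups did not overlap for either gene, and the changes were 1.88 ± 0.12 and 1.48 ± 0.15 (log2, SE; edgeR adjusted p = 1.03e-12 and 8.72e-09).

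Hoxb2 (1.33 ± 0.15), Hoxb4 (1.68 ± 0.17), Hoxb5 (1.64 ± 0.24), and Hoxb8 (1.21 ± 0.28) had like changes on the log2 scale (SE). Hoxb7 lay at the 2-fold threshold (1.00 ± 0.17) and fell under it with other scaling factors and without EASCs sample 1 or 2 or PASCs sample 1 or 3, and the call of Hoxb8 was lost without PASCs sample 2. In SASCs, Hoxb4 (7.40 ± 0.714 CPM) and Hoxb5 (5.02 ± 0.897 CPM) were near their EASCs levels (8.75 ± 1.20 and 4.68 ± 0.761 CPM). Mean SASCs levels of Hoxb2, Hoxb3, and Hoxb6 lay between those of the visceral groups, and those of Hoxb7 and Hoxb8 above both. Hoxb3, Hoxb4, and Hoxb5 overlap on the same strand, so their counts may be shared. Hoxb9, the next gene, was at 0.337 ± 0.107 CPM in EASCs, 0.441 ± 0.0779 CPM in PASCs, and 2.49 ± 0.663 CPM in SASCs, and was not called (-0.36 ± 0.48).

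In the HoxC cluster 2 of 6 genes tested were called, the posterior Hoxc9 and Hoxc10. Hoxc9, beside Hoxc10, was at 1.26, 2.07, and 1.21 CPM in EASCs and 5.81, 7.55, and 5.399 CPM in PASCs, and all EASCs samples were below all PASCs samples (-2.05 ± 0.22 on the log2 scale, SE; edgeR adjusted p = 1.84e-08). Hoxc4, Hoxc5, Hoxc6, and Hoxc8 lay within 2-fold, between -0.25 (Hoxc6) and 0.42 (Hoxc5) on the log2 scale, with an adjusted p under 0.05 for these last 2 (0.0107 and 0.0445, edgeR). Hoxc8 was at 33.3 ± 3.03 CPM in EASCs and 30.5 ± 0.7195 CPM in PASCs. Hoxd3, Hoxd4, and Hoxd9 of the HoxD cluster were not called. Of 10 HoxA genes in the count table, 9 had 0 counts in all 9 samples and the tenth at most 3, and 4 of the 10 are placed on an unassigned scaffold of chromosome 4, so HoxA cannot be judged from these counts.

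The positions of the deposited table are those of build rn6, as named in the methods, while the submitters' processing notes name rn5. On these coordinates Hoxc10 lies at chr7:144577512-144582802 and Hoxc9 at chr7:144592470-144598807, both on the + strand.

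**Figure D2:**
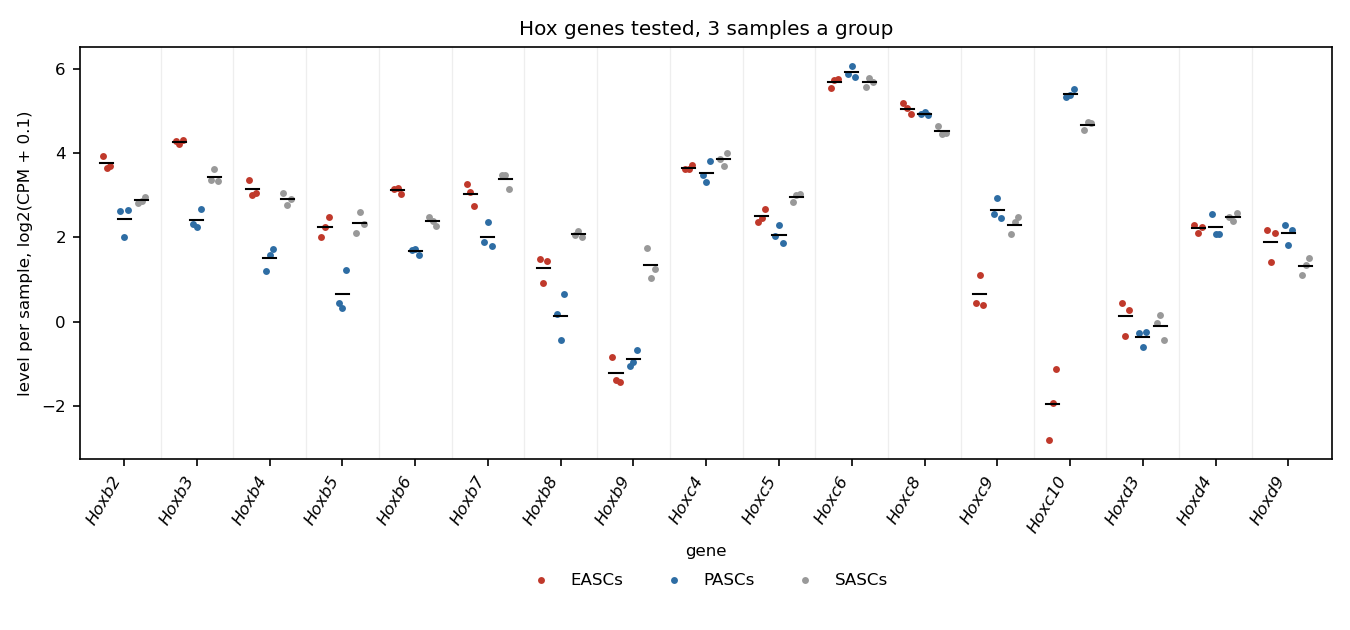
Level of the 17 Hox genes tested in each sample, as log2(CPM + 0.1), with a point for each of 3 samples a group and a black line at the mean. EASCs lie above PASCs from Hoxb2 to Hoxb8, the groups run together from Hoxc4 to Hoxc8, and EASCs lie far below both other groups at Hoxc10.

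Other positional factors separated the depots in both directions. Of 72 genes tested in a list of transcription factors of trunk, limb, and body wall, 12 were higher in EASCs and 16 lower, and the median log2 fold change was 0.028. Alx1, a homeobox factor of craniofacial and limb mesenchyme, was at 4.603, 3.69, and 3.53 CPM in EASCs and had 0 counts in all PASCs and SASCs samples, which makes it at least 30.7-fold higher against a floor of 3 counts a sample. LOC102555472, a gene of unknown function on the other strand, overlaps it. Pax3, a factor of the dermomyotome and neural crest, was the reverse, with 0.726, 0.934, and 1.91 CPM in PASCs, 0 counts in all EASCs and SASCs samples, and at least 9.35-fold higher levels in PASCs. Both were thus seen in 1 depot of the 3.

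Among the genes lower in EASCs were the homeobox genes Six4, Irx3, and Dlx3. Six4, a factor of muscle precursors, was at 2.18, 2.795, and 2.41 CPM in EASCs and 6.73, 8.63, and 7.52 CPM in PASCs (-1.63 ± 0.16, log2, SE), with no overlap. Irx3, which has been tied to body fat and browning, was at 0, 0.243, and 0.224 CPM in EASCs, 1.91, 1.42, and 1.38 CPM in PASCs, and 8.65, 7.98, and 5.56 CPM in SASCs, and its neighbour Irx5 fell with it (-3.31 and -2.09 on the log2 scale). EASCs were lowest of the 3 groups for Irx3, at 0 to 6 counts a sample. Dlx3 (1.38 ± 0.249 and 7.695 ± 0.3796 CPM in EASCs and PASCs), Zfhx4 (8.01 ± 1.29 and 34.99 ± 2.06 CPM), Tbx15, a marker of subcutaneous and dorsal fat (1.32 ± 0.495 and 3.47 ± 0.519 CPM), and Meox2 (5.12 ± 0.573 and 12.3 ± 0.946 CPM) were also lower in EASCs. Dlx5, of the same family as Dlx3, was higher (5.13 ± 0.106 and 2.26 ± 0.566 CPM), a call that was lost without PASCs sample 1. Heyl, a Notch target (2.31 ± 0.34 and 0.189 ± 0.165 CPM), Foxs1 (49.04 ± 2.92 and 15.9 ± 1.37 CPM), Foxp2 (2.71 ± 0.211 and 0.815 ± 0.335 CPM), and Tbx2 (4.08 ± 1.33 and 1.67 ± 0.325 CPM) were higher. The low genes Eya4 (3.17 ± 0.52, log2, SE) and Pax9 (-3.13 ± 0.50) had few counts in the lower group, 2 to 6 and 2 to 8 a sample, and Pax9, which overlaps another gene, was at -4.08 without EASCs sample 1. Heyl and Foxs1 are also used by vascular cells, whose marker sums are given above, and the part of such cells in these levels was not tested.

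In a list of visceral and urogenital factors 45 genes were tested, and 10 were higher in EASCs and 3 lower, with a median of 0.34. The higher genes included Tcf21 (epicardin), a factor of visceral mesenchyme, at 7.07, 7.58, and 7.29 CPM in EASCs, 0.726, 2.02, and 1.69 CPM in PASCs, and 0 counts in SASCs. All EASCs samples were above all PASCs samples (2.31 ± 0.26, log2, SE; edgeR adjusted p = 7.53e-08). Gli2, an effector of hedgehog signaling (15.02 ± 1.09 and 5.63 ± 0.966 CPM), Tead2, a partner of YAP (12.1 ± 1.39 and 3.97 ± 0.496 CPM), and Sox11 (5.48 ± 0.355 and 1.98 ± 0.339 CPM) were also higher in EASCs. Sox17, a factor of endoderm and endothelium, was higher (4.14 ± 0.64, log2, SE) at 0 to 3 counts a sample in PASCs, with 3.53 without PASCs sample 1 and 4.96 without PASCs sample 3. Mab21l1 was lower (-1.12 ± 0.25), a call that was lost without PASCs sample 3. Sox17 and Mab21l1 overlap other genes.

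The Dmrt genes, factors that share a DNA-binding domain with doublesex, formed a block that was lower in EASCs. Dmrt2 was at 2.09, 3.2, and 2.55 CPM in EASCs, 33.8, 39.6, and 39.01 CPM in PASCs, and 30.02, 31.7, and 29.3 CPM in SASCs, and Dmrt3 at 0.628, 1.42, and 0.805 CPM, 13.1, 11.1, and 14.4 CPM, and 0.6602, 1.15, and 1.46 CPM. Dmrt1 was lower by the same test, at 0.492 ± 0.0744 CPM in EASCs and 2.26 ± 0.433 CPM in PASCs. None of the 3 genes had overlapping samples, and the changes were -3.83 ± 0.12, -3.74 ± 0.23, and -2.19 ± 0.39 (log2, SE; edgeR adjusted p = 1.88e-19, 4.69e-13, and 6.03e-05). They lie side by side on the + strand between chr1:243477403-243582629 (Dmrt1) and chr1:243662819-243669312 (Dmrt2) of rn6. The early B-cell factor Ebf3 was lower as well, at 8.71 ± 0.992 CPM in EASCs, 29.1 ± 4.02 CPM in PASCs, and 139 ± 11.6 CPM in SASCs.

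**Figure D3:**
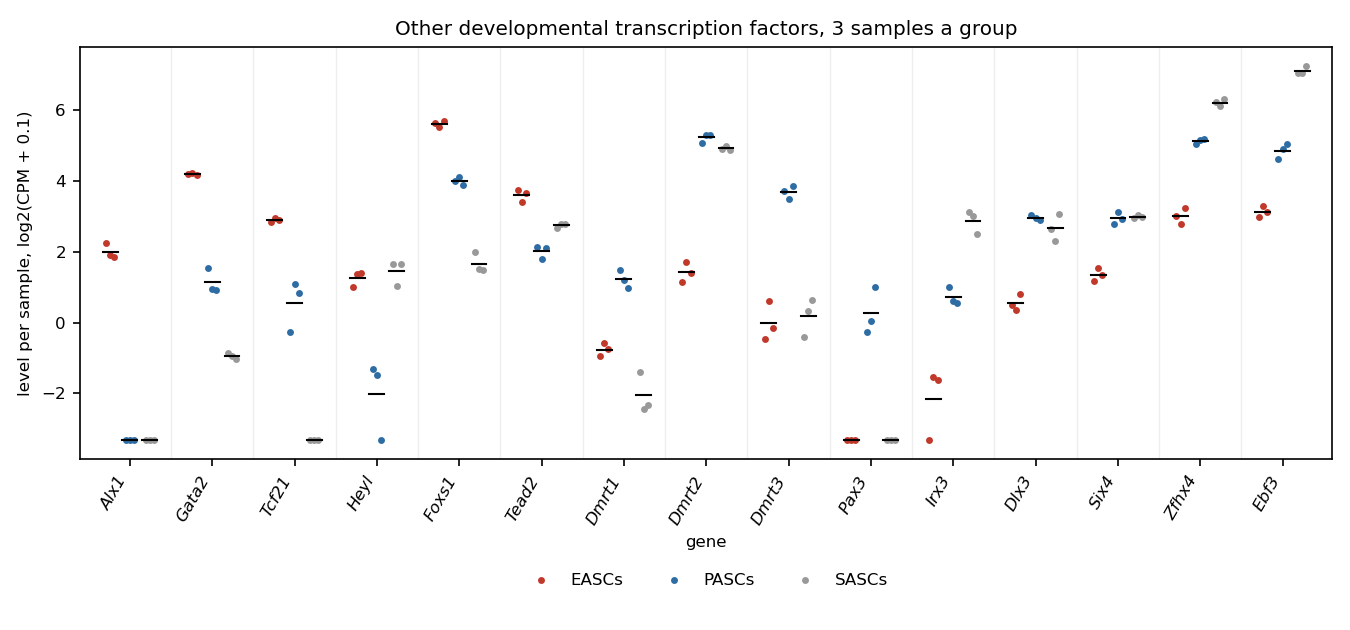
Level of 15 other developmental transcription factors in each sample, as log2(CPM + 0.1), with 3 points a group and a black line at the mean. Alx1 is at the floor outside EASCs, Pax3 at the floor outside PASCs, and Dmrt1, Dmrt2, and Dmrt3 are lower in EASCs than in PASCs.

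Genes of the TGF-beta family were called in both directions. Of 47 ligands, antagonists, and receptors tested, 12 were higher and 5 lower, a share of higher genes near that of all DEGs (70.2%), with a median of 0.26. Bmp6, a bone morphogenetic protein that also controls iron balance, was at 98.9, 102, and 99.9 CPM in EASCs, 19.6, 18.3, and 18.0 CPM in PASCs, and 1.01, 1.48, and 1.61 CPM in SASCs. Tgfb3 was at 519, 513, and 526 CPM in EASCs, 141, 139, and 142 CPM in PASCs, and 36.6, 36.5, and 34.9 CPM in SASCs. Both ligands fell in the order EASCs, PASCs, SASCs without overlap, with EASCs above PASCs by 2.43 ± 0.074 and 1.89 ± 0.052 (log2, SE; edgeR adjusted p = 1.41e-19 and 1.23e-20).

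Tgfb2 (99.1 ± 6.0 and 30.04 ± 1.58 CPM in EASCs and PASCs) and Inhbb, the activin B subunit (30.7 ± 1.12 and 14.2 ± 1.26 CPM), were the other ligands clearly above 10 CPM that were higher in EASCs. The BMP antagonists did not share 1 direction. Nog, noggin, was higher in EASCs (2.74 ± 0.775 and 0.764 ± 0.241 CPM), and Fstl3 and Ltbp4, which bind activin and latent TGF-beta, were higher too (1.20 and 1.69 on the log2 scale). Chrdl1, chordin-like, was lower, at 0.879, 1.34, and 1.34 CPM in EASCs, 16.4, 17.7, and 21.7 CPM in PASCs, and 104, 104, and 112 CPM in SASCs (-3.96 ± 0.14, log2, SE; edgeR adjusted p = 4.58e-18). Grem1, gremlin, was also lower (198 ± 8.29 and 424 ± 22.3 CPM), as was the receptor Bmpr1b (4.46 ± 0.821 and 11.7 ± 1.12 CPM). Among the low ligands, Gdf6 was higher (2.07 ± 0.33, log2, SE) and Bmp3 lower (-1.42 ± 0.42), the latter not without EASCs sample 1, and Gdf6 overlaps another gene. Chrdl1 and Grem1 thus had their lowest mean levels of the 3 groups in EASCs.

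Of 15 Wnt ligands and secreted modulators tested, 4 were higher in EASCs and 3 lower, with a median of 0.35. Wnt11 (4.69 ± 0.876 and 1.47 ± 0.303 CPM), Wnt2b (3.24 ± 0.355 and 0.994 ± 0.247 CPM), and Rspo1, which amplifies Wnt signals and acts in the gonad (24.7 ± 1.46 and 10.9 ± 0.543 CPM), were higher. Wnt9a (3.12 ± 0.471 and 8.82 ± 1.53 CPM) and the Wnt-binding proteins Sfrp2 (0.495 ± 0.0459 and 1.53 ± 0.3996 CPM) and Sfrp4 (8.46 ± 0.918 and 20.99 ± 1.79 CPM) were lower. Wnt4 was called higher close to the 2-fold threshold (1.03 ± 0.11, log2, SE), and the call was lost without EASCs sample 3, without PASCs sample 2, or when total counts were used without TMM.

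Of 62 growth factors and their binding proteins tested, 15 were higher in EASCs and 6 lower, with a median of 0.25. Nov (CCN3), a matrix-bound signal, was at 322, 321, and 302 CPM in EASCs and 96.01, 93.1, and 103 CPM in PASCs, and Hgf, hepatocyte growth factor, at 9.92, 10.4, and 10.6 and 1.95, 2.54, and 2.81 CPM. Neither overlapped between the groups (1.69 ± 0.056 and 2.1 ± 0.15, log2, SE). Fgf18 (8.43 ± 0.558 and 1.63 ± 0.0952 CPM), Pdgfb (3.56 ± 0.289 and 0.936 ± 0.229 CPM), and Angpt2, angiopoietin 2 (4.23 ± 0.616 and 0.873 ± 0.308 CPM), were higher as well. Pdgfb and Angpt2 are made by endothelium, which has the marker sums given above, and its part in their levels was not tested. Fgf18 and Angpt2 overlap the genes Npm1 and Mcph1, so their counts are uncertain.

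The growth factors lower in EASCs included Esm1 (endocan), at 60.8, 63.4, and 54.1 CPM in EASCs, 193, 188, and 180.3 CPM in PASCs, and 70.2, 64.5, and 61.4 CPM in SASCs. Only PASCs were high (-1.65 ± 0.064, log2, SE; edgeR adjusted p = 1.62e-17). Kitlg, stem cell factor (14.3 ± 1.08 and 36.2 ± 0.854 CPM), Nrg1, neuregulin 1 (3.31 ± 0.753 and 9.699 ± 0.612 CPM), and Bdnf (0.643 ± 0.353 and 1.91 ± 0.186 CPM) were lower in EASCs by 1.34 to 1.57 on the log2 scale.

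Of 44 cytokines and chemokines tested, 10 were higher in EASCs and 4 lower, with a median of 0.43, and Il1rn was far apart from the rest. The monocyte attractants Ccl2, at 186, 181, and 170.1 CPM in EASCs and 82.9, 84.1, and 83.8 CPM in PASCs, and Ccl7, at 247, 236, and 242 and 94.5, 93.4, and 97.02 CPM, were higher without overlap (1.10 ± 0.053 and 1.35 ± 0.052, log2, SE). Pf4, the platelet factor that macrophages also make (14.97 ± 1.53 and 4.19 ± 0.365 CPM), was higher, and the leukocyte marker sums given above moved the same way. Il15 (1.38 ± 0.14, log2, SE; it overlaps another gene) and Tnfsf15 (1.90 ± 0.43) were higher, and the chemokines Cxcl14 (3.07 ± 0.7104 and 7.304 ± 1.47 CPM) and Cxcl6 (-1.12 ± 0.28) were lower.

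Of 47 peptide hormones, vasoactive, and other secreted signals, 12 were higher in EASCs and 4 lower, with a median of 0.59. Edn1, the vasoconstrictor endothelin 1, was at 64.9, 59.9, and 66.9 CPM in EASCs and 16.7, 17.7, and 19.4 CPM in PASCs, and Apln, apelin, at 32.4, 30.7, and 30.7 and 8.11, 9.45, and 8.84 CPM. Both were higher in EASCs in every sample (1.84 ± 0.079 and 1.83 ± 0.091, log2, SE). Tfpi2, a protease inhibitor (51.97 ± 2.09 and 11.1 ± 0.909 CPM), Plat, tissue plasminogen activator (42.96 ± 0.947 and 13.9 ± 0.758 CPM), and Apoe, a lipid carrier (178 ± 9.97 and 56.7 ± 4.41 CPM), were also higher. Ptgs1, cyclooxygenase 1 (59.1 ± 4.91 and 171 ± 1.38 CPM), and Stc1, stanniocalcin (3.39 ± 0.306 and 10.5 ± 1.37 CPM), were lower. Lcn2, lipocalin 2 (3.94 ± 0.59, log2, SE, with 1 to 3 counts a sample in PASCs), and Fndc5, the precursor of irisin (1.87 ± 0.30), were higher, and Olfml3 was lower (-1.06 ± 0.053; it overlaps another gene).

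**Figure D4:**
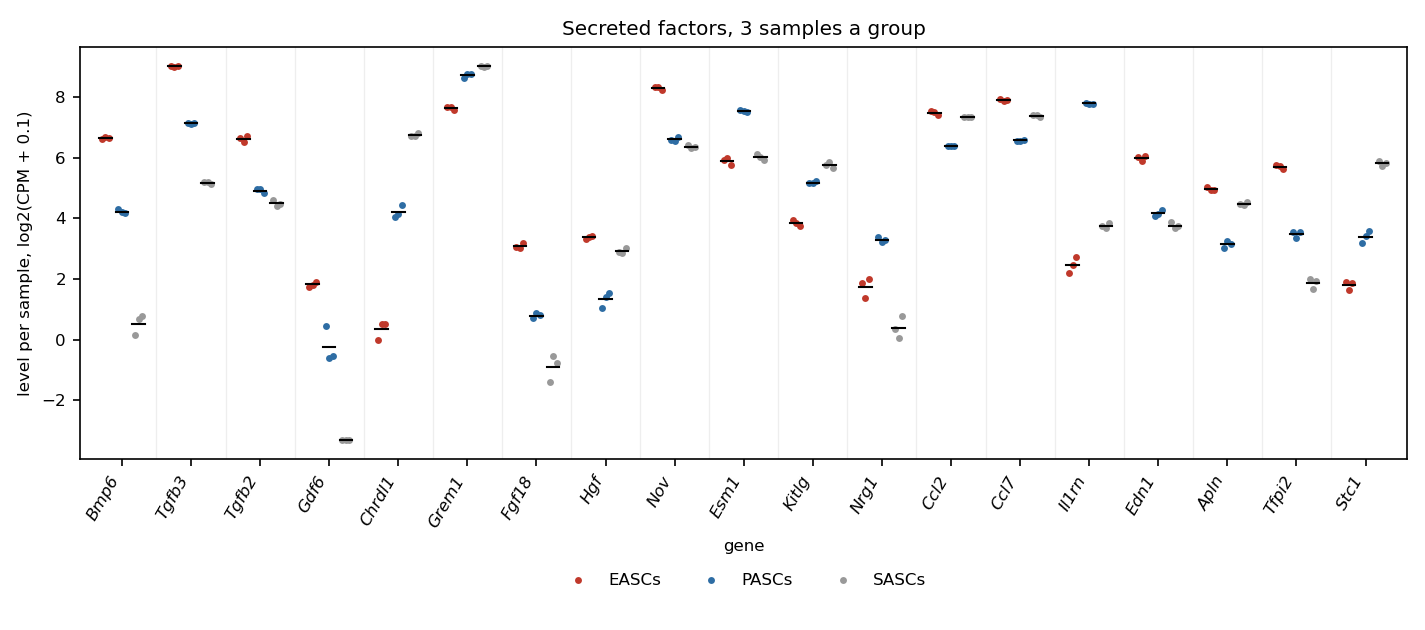
Level of 19 secreted factors in each sample, as log2(CPM + 0.1), with 3 points a group and a black line at the mean. Bmp6, Tgfb3, Nov, Edn1, and Apln lie higher in EASCs than in PASCs, and Chrdl1, Esm1, and Il1rn lower, with Il1rn high in PASCs alone.

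Among matrix genes, 29 of 89 glycoproteins and proteoglycans but 1 of 29 collagens were called. The share of collagens called was 3.45%, against 7.39% of all genes, and 14 of the 29 had an adjusted p under 0.05 at any fold, against 30.7% of all genes. The collagen called was Col27a1, a fibrillar collagen of cartilage, at 8.66, 7.697, and 8.76 CPM in EASCs and 27.4, 22.9, and 27.2 CPM in PASCs (-1.62 ± 0.10, log2, SE). The main fibrillar collagens Col1a1 (0.088), Col1a2 (-0.0014), and Col3a1 (-0.62) changed by less than 2-fold on the log2 scale, as did Col4a1 (0.71) and Col4a2 (0.61) of the basement membrane.

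Of 89 matrix glycoproteins and proteoglycans tested, 17 were higher in EASCs and 12 lower, 32.6% in all, with a median of 0.22. The laminins changed in opposite directions. Lama5, the alpha chain of laminins in vascular and epithelial basement membranes, was at 69.04, 72.6, and 87.1 CPM in EASCs, 7.95, 7.21, and 10.4 CPM in PASCs, and 10.4, 9.08, and 10.4 CPM in SASCs. Lamb3 was at 2.89, 4.17, and 3.58 CPM in EASCs and 13.2, 11.7, and 9.74 CPM in PASCs. EASCs were high for the first and low for the second, with changes of 3.18 ± 0.11 and -1.70 ± 0.17 (log2, SE; edgeR adjusted p = 1.03e-18 and 3.40e-09). Lama3 (2.76 ± 0.253 and 6.13 ± 0.682 CPM), a laminin chain of epithelial anchors, was lower in EASCs too.

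Tenascins also went both ways. Tnc, tenascin C, was at 3341, 3425, and 3765 CPM in EASCs, 975, 915, and 1052 CPM in PASCs, and 208, 216, and 228 CPM in SASCs, an ordered fall without overlap (1.84 ± 0.065 between EASCs and PASCs, log2, SE; edgeR adjusted p = 2.90e-18). Tnn, tenascin N (0.436 ± 0.1297 and 2.598 ± 0.282 CPM), and Thbs4, thrombospondin 4 (0.128 ± 0.04897 and 4.31 ± 0.0659 CPM, ratio of summed counts 34, 95% exact counting interval 17.7 to 75.1), were lower in EASCs. Fn1, fibronectin, had the largest difference in level of all genes called, at 5977, 5896, and 7058 CPM in EASCs and 2805, 2665, and 3421 CPM in PASCs (1.09 ± 0.083, log2, SE). Mfge8, a glycoprotein that bridges integrins and dying cells, was higher at 794 ± 23.5 and 386 ± 3.59 CPM, and Gpc1, glypican 1, was lower at 229 ± 16.1 and 468 ± 18.2 CPM. Fn1 and Mfge8 lay close to the 2-fold threshold and fell under it when total counts were used without TMM, and Gpc1, which overlaps other genes, fell under it without EASCs sample 1.

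Further glycoproteins higher in EASCs were Egflam, pikachurin (2.49 ± 0.31, log2, SE), Smoc1, a calcium-binding protein of basement membranes (22.3 ± 1.003 and 2.46 ± 0.448 CPM), Abi3bp (67.03 ± 1.23 and 16.0 ± 3.08 CPM), Mgp, an inhibitor of calcification (45.5 ± 0.688 and 9.35 ± 1.06 CPM), Fmod, fibromodulin (35.4 ± 2.23 and 8.39 ± 1.38 CPM), and Eln, elastin (5.07 ± 0.295 and 1.84 ± 0.595 CPM). Postn, periostin (48.1 ± 3.77 and 136 ± 2.34 CPM), Tgfbi (9.01 ± 1.03 and 26.1 ± 0.488 CPM), Dpt, dermatopontin (1.12 ± 0.0837 and 4.44 ± 0.509 CPM), and Acan, the cartilage proteoglycan aggrecan (1.01 ± 0.438 and 3.55 ± 1.33 CPM), were lower. The calls of these 10 genes were kept when each sample was left out in turn.

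Of 71 matrix-modifying enzymes and inhibitors tested, 9 were higher in EASCs and 3 lower, with a median of 0.24. Tgm2, described above, had the largest change of the list. Timp3, an inhibitor of metalloproteinases, was at 22.9 ± 1.14 CPM in EASCs and 7.12 ± 0.539 CPM in PASCs, and Cemip, which breaks down hyaluronan, at 26.3 ± 2.39 and 9.45 ± 0.422 CPM. Adamtsl3, an ADAMTS-like protein without protease activity (2.37 ± 0.411 and 12.7 ± 2.06 CPM), Adam22 (-2.32 ± 0.15, log2, SE; it overlaps Dbf4), and Has1, a hyaluronan synthase (-1.07 ± 0.21), were lower, while Adamts3 (1.63 ± 0.50) and Plod2, a lysyl hydroxylase of collagen (925 ± 43.4 and 448 ± 24.2 CPM), were higher. The call of Plod2 was lost without TMM, that of Has1 without EASCs sample 3 or PASCs sample 3, and that of Adamts3 without EASCs sample 2 or PASCs sample 1 or 2. Of 11 metalloproteinases tested 1 was called, Mmp15, at 1.398 ± 0.335 CPM in EASCs and 0.5201 ± 0.267 CPM in PASCs, and its call was lost without EASCs sample 1 or PASCs sample 1.

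Of 44 integrins and cadherins tested, 7 were higher and 3 lower, with a median of 0.42. Itga8, the integrin chain of mesangial and smooth muscle cells, was at 129.5, 129.6, and 125 CPM in EASCs and 39.6, 39.5, and 41.2 CPM in PASCs, and Cdh2, N-cadherin, at 131, 129.9, and 134 and 43.8, 46.2, and 49.5 CPM. Each was higher in EASCs without overlap (1.68 ± 0.058 and 1.5 ± 0.061, log2, SE). Cdh5, VE-cadherin of endothelium, was at 9.76 ± 0.723 CPM in EASCs, 1.13 ± 0.242 CPM in PASCs, and 9.196 ± 0.865 CPM in SASCs, and Gja5, connexin 40, at 61.01 ± 1.38, 6.41 ± 0.366, and 57.5 ± 0.899 CPM. For both, PASCs were low and the 2 other groups high. PASCs were also lowest for the endothelial marker sums, though by a much smaller gap. Dchs1, a protocadherin of planar polarity (10.9 ± 0.631 and 29.1 ± 2.71 CPM), was lower in EASCs, as were Cdh17 (-2.98 ± 0.43, log2, SE) and Itgb7 (-1.77 ± 0.23), which are low and overlap other genes.

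Of 59 guidance genes tested, 9 were higher in EASCs and 1 lower, with a median of 0.39. Plxnd1, a semaphorin receptor (25.7 ± 1.41 and 9.45 ± 1.53 CPM), Plxnb1 (1.48 ± 0.16, log2, SE), Epha7 (1.67 ± 0.43), and Ntn1, netrin 1 (12.7 ± 1.57 and 5.46 ± 0.573 CPM), were among the higher. Sema3d, a secreted semaphorin, was the lower one, at 6.23, 6.16, and 6.04 CPM in EASCs and 20.6, 23.2, and 22.4 CPM in PASCs (-1.84 ± 0.11, log2, SE).

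**Figure D5:**
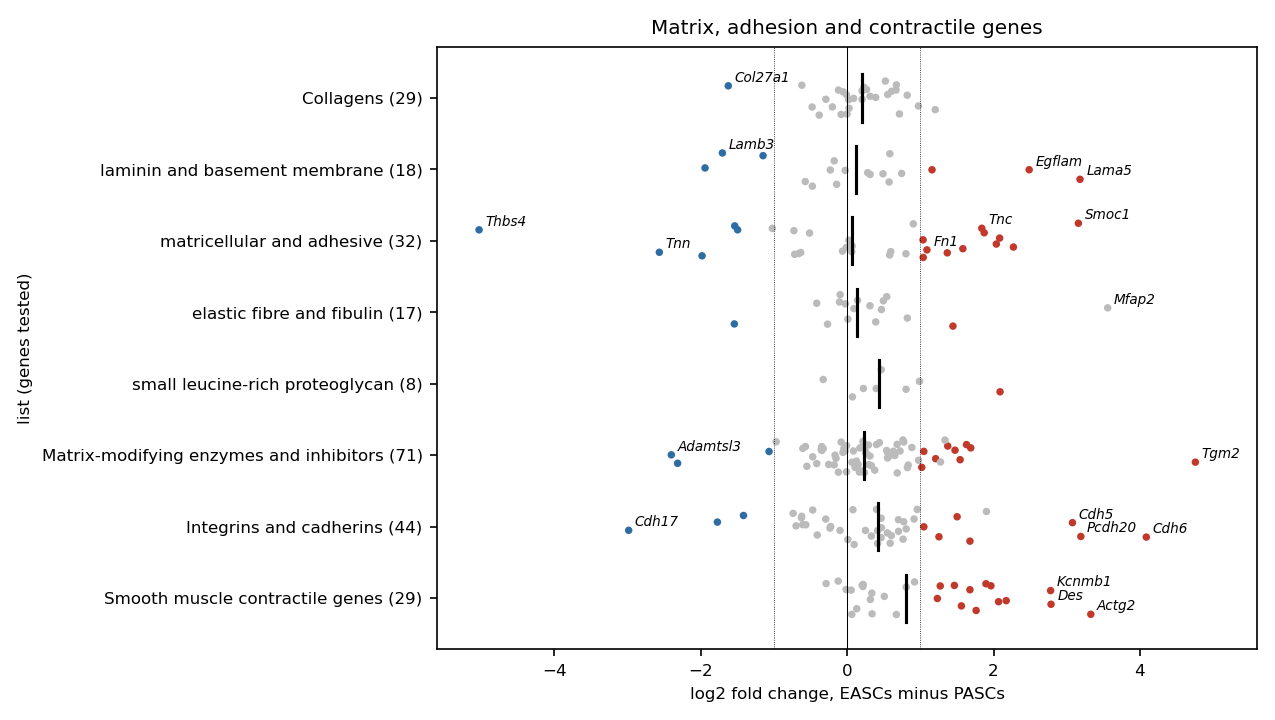
Log2 fold change of EASCs against PASCs for each tested member of matrix, adhesion, and contractile lists, with red points for DEGs higher in EASCs, blue for lower, grey for genes not called, and a black bar at the median of each list. Collagens lie within a 2-fold change except for Col27a1 and 1 uncalled gene, laminins and matricellular genes reach out on both sides, and no contractile gene is called lower.

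Of 29 contractile genes of smooth muscle tested, 13 were higher in EASCs and 16 were not called. The median change was 0.81 on the log2 scale, and the lowest -0.29 (Csrp2). Actg2 was at 117, 116, and 119.9 CPM in EASCs, 12.2, 10.7, and 12.2 CPM in PASCs, and 3.51, 3.82, and 3.71 CPM in SASCs, and Des, desmin of muscle intermediate filaments, at 183, 198, and 197 CPM in EASCs, 28.9, 27.5, and 27.3 CPM in PASCs, and 11.3, 11.5, and 10.1 CPM in SASCs. Each fell from EASCs to PASCs to SASCs without overlap (3.33 ± 0.073 and 2.79 ± 0.063 between EASCs and PASCs, log2, SE; edgeR adjusted p = 1.11e-22 and 1.61e-22).

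Acta2, alpha smooth muscle actin (2199 ± 28.8 and 910.4 ± 15.1 CPM), Myh11, the smooth muscle myosin chain (212 ± 7.99 and 54.4 ± 2.39 CPM), Cnn1, calponin (328 ± 9.69 and 111 ± 7.02 CPM), Mylk, myosin light chain kinase (630.1 ± 10.5 and 228 ± 8.23 CPM), Kcnmb1, a potassium channel subunit (5.63 ± 0.982 and 0.796 ± 0.405 CPM), and Myocd, myocardin, the coactivator of the program (4.86 ± 0.336 and 1.13 ± 0.349 CPM), were higher. Tagln (0.92), Cald1 (0.32), Tpm1 (0.51), and Srf, the DNA-binding partner of myocardin (-0.013), changed by less than 2-fold on the log2 scale. Actg2, Acta2, and Acta1 are near-identical in sequence, so reads may be split between them. Des and Myh11 are also on the mural marker list, whose sum was 468 to 498 CPM in EASCs and 150 to 164 CPM in PASCs. These 2 genes carry most of the gap in that sum, so it adds little beyond them. The part of mural cells in these levels was not tested.

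The CArG box, which Srf binds, was searched in the promoters of the list because 13 of its 29 tested members were higher and none was called lower. It was found in 4 of 22 contractile promoters matched (18.2%), against 1.65% of all 24206 promoters, 1.3% of those of the genes higher in EASCs, and 1.15% of those of the genes lower. Only 1 of the 4 belongs to a gene that was higher in EASCs, Acta1, skeletal muscle alpha actin, whose window on GRCr8 is printed with the box in capitals.
Acta1 (chr19:68784145-68784444, - strand): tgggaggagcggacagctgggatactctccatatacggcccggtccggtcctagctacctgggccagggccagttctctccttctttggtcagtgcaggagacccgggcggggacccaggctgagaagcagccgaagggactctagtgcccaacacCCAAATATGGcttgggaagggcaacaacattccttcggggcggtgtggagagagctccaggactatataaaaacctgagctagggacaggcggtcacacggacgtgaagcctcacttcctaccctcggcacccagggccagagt
The other 3, Cnn2, Ldb3, and Srf itself, changed by 0.055, -0.12, and -0.013 on the log2 scale. The Actg2 window printed above holds none. Only 250 bases before to 50 after each annotated start were searched, so boxes elsewhere, or at another start of a gene, would be missed.

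Mesothelial markers were examined because the depots differ in their lining. Of 27 tested 10 were higher in EASCs and 2 lower, with a median of 0.60. Nkain4 was at 14.8, 16.6, and 16.5 CPM in EASCs, 2.83, 2.13, and 2.28 CPM in PASCs, and 0.417, 0.552, and 0.439 CPM in SASCs, and Aldh1a2, which makes retinoic acid, at 3.23 ± 0.2795, 0.384 ± 0.222, and 2.39 ± 0.737 CPM. C3, the central complement protein, which leukocytes also make, was at 5.25 ± 0.312, 0.617 ± 0.168, and 7.34 ± 0.701 CPM. Of 4 keratins tested, 1 was higher in EASCs and 2 lower. Krt18 was higher (1.89 on the log2 scale), with 69, 46, and 44 counts in EASCs and 16, 14, and 13 in PASCs. Its call was kept when each sample was left out in turn. Krt14 was lower in EASCs (-1.41 ± 0.48, log2, SE; not called without EASCs sample 1 or PASCs sample 2 or 3). Krt7 was lower too, at 61.8 ± 1.53 CPM in EASCs, 126 ± 3.15 CPM in PASCs, and 1.76 ± 0.179 CPM in SASCs. The markers therefore did not move as 1 group, and Calb2, calretinin, had 0 counts in EASCs and PASCs.

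Of 39 markers of adipose progenitors tested, 9 were higher and 5 lower, with a median of 0.084. Beside Mcam and Eng, the higher genes included Cd34 (3.89 ± 0.382 and 0.581 ± 0.242 CPM) and Pecam1 (6.47 ± 0.586 and 1.11 ± 0.367 CPM), which mark endothelium. Cd55, complement decay-accelerating factor and a marker of interstitial progenitors, was at 537, 517, and 525 CPM in EASCs, 1219, 1232, and 1312 CPM in PASCs, and 282, 279, and 300.5 CPM in SASCs, and Ggt5 at 2.86 ± 0.294, 24.1 ± 3.06, and 37.9 ± 3.89 CPM. Cd55 was highest in PASCs, and both were lower in EASCs than in PASCs (-1.25 ± 0.055 and -3.07 ± 0.13, log2, SE). Of 8 interstitial progenitor markers tested, Cd55 alone was called and 7 were not, with a median of -0.41.

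Of 46 adipogenic and adipocyte genes tested, 3 were higher in EASCs and 7 lower, with a median of -0.35. Scd, the desaturase of fatty acid synthesis, was at 490.1, 508, and 520.1 CPM in EASCs and 1431, 1468, and 1555 CPM in PASCs, and Adipoq, adiponectin, at 4.18, 4.54, and 4.02 and 10.3, 9.08, and 9.63 CPM. EASCs were lower for both without overlap, with changes of -1.55 ± 0.056 and -1.19 ± 0.12 (log2, SE). Gpd1 (4.65 ± 0.648 and 14.1 ± 1.07 CPM) and Plin1, perilipin (1.27 ± 0.145 and 3.66 ± 0.0343 CPM), were lower too. Gata2, which holds preadipocytes back from differentiation, was higher, at 18.2, 18.7, and 17.8 CPM in EASCs, 2.83, 1.83, and 1.8 CPM in PASCs, and 0.452, 0.424, and 0.3903 CPM in SASCs (3.07 ± 0.16, log2, SE; edgeR adjusted p = 5.98e-15). Pparg (-0.55) and Cebpa (-0.12), the main adipogenic factors, changed by less than 2-fold on the log2 scale. Rarres2, chemerin (1.54 ± 0.088, log2, SE; it overlaps Lrrc61), and Tnfrsf9 (1.35 ± 0.25) were higher. Scd has a close relative, Scd1 in some annotations, so its counts may be split.

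In retinoid and steroid signaling 4 of 25 genes were higher and 2 lower, with a median of 0.20. Star, which carries cholesterol into mitochondria for steroid synthesis, was at 175, 173, and 164 CPM in EASCs, 34.9, 33.03, and 35.2 CPM in PASCs, and 2.54, 2.503, and 2.196 CPM in SASCs. Star was highest in EASCs, without overlap (2.31 ± 0.060 against PASCs, log2, SE). Cyp26b1, which degrades retinoic acid, was higher as well (2.82 ± 0.55) at 1 to 8 counts a sample in PASCs, with a ratio of summed counts of 7.24 (95% exact counting interval 4.03 to 14.1). The log2 change of Cyp26b1 was 3.50 without PASCs sample 1 and 2.30 without PASCs sample 2. Of 7 adrenal cortex genes in the count table, 3 were tested and 1, Star itself, was called, so the sum of that list (167 to 177 CPM in EASCs and 34.6 to 37.7 CPM in PASCs) is nearly that of Star alone. The retinoic acid-binding Crabp1 (0.492 ± 0.226 and 2.45 ± 0.641 CPM) and the steroid reductase Akr1c14 (8.35 ± 1.104 and 41.3 ± 2.51 CPM) were lower in EASCs.

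Genes with large changes that no list held included Pdlim3, a Z-disc protein of muscle (9.44 ± 0.901 and 0.864 ± 0.123 CPM), and Pgm5, a protein of muscle adhesions (6.35 ± 0.783 and 0.786 ± 0.462 CPM), both higher in EASCs. Lower in EASCs were Kcnk2, a potassium channel (3.82 ± 0.489, 39.2 ± 3.58, and 54.9 ± 4.91 CPM in EASCs, PASCs, and SASCs), Nptx1, a pentraxin of neurons (0.475 ± 0.141, 5.63 ± 0.5101, and 66.6 ± 7.29 CPM), Klhl41, a muscle kelch protein (1.45 ± 0.104, 15.3 ± 2.19, and 0.998 ± 0.236 CPM), Lrrc15, a fibroblast surface protein (1.92 ± 0.318, 18.2 ± 2.29, and 2.87 ± 0.486 CPM), and Lrrn4cl (2.81 ± 0.667, 24.04 ± 3.55, and 113 ± 4.51 CPM). Klhl41 and Lrrc15 were thus high in PASCs alone, while Nptx1 and Lrrn4cl were highest in SASCs.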

How the data were processed

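Paired-end RNA-seq reads were trimmed, aligned to the rat genome with TopHat2, and counted on genes by the authors. The methods name build rn6, which the positions in the table match, while the submitters' processing notes name rn5. The authors deposited whole-number counts for 35362 genes without normalization. The tool that counted, the use of strand, and the handling of reads matching several genes are not given in the sources used here.

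From these counts, edgeR 4.0.16 in R 4.3.3 was used with TMM factors (0.740 to 1.23), filterByExpr (14770 genes kept), and quasi-likelihood tests fitted on the 9 samples together, EASCs minus PASCs being the contrast and Benjamini-Hochberg the adjustment over all genes. DEGs changed more than 2-fold at an adjusted p below 0.05. SE is the log2 fold change divided by the root of F. The design had allowed for FPKM, and counts were found. A count of 3 equals 0.104 to 0.159 CPM, and this floor and the counting intervals cover counting error only.

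The members and gene lists were chosen with earlier results of these data known. The text names the 12 DEGs with the largest change in each direction (at least 5 CPM, no overlap), the 5 with the largest CPM difference, up to 3 per list and direction (at least 1 CPM), and each Hox gene tested. Other members of the lists, and Cd44, Thy1 and the uncalled genes were picked with their values in view. A few genes that this rule selects, and a few list members, are not reported here.

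The fit was tested on simulated counts of 14422 genes for EASCs against PASCs, where 93 of 100 genes changed 3-fold and 98 of 100 changed 5-fold were recovered with 2 false calls. The alternatives were DESeq2 1.42.0, RLE factors, no TMM, other filters and thresholds, only 6 samples, a replicate block, removal of rRNA genes or their share as a covariate, and each sample left out in turn. Promoters were matched by symbol to RefSeq on GRCr8.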

Additional observations from a re-analysis of the deposited data

How the results depend on the processing

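The 766 genes higher and 325 lower in EASCs became 733 and 320 with DESeq2, 650 and 361 with total counts without TMM (64.3% higher, against 70.2%, and a median of all genes of -0.077), and 802 and 343 without the filter. A fold change above 1.5 gave 1241 and 704, and a test against a fold change of 2 gave 268 and 129. Leaving out each sample in turn gave 701 to 784 and 303 to 326. The replicate numbers did not pair the samples (correlations of same-numbered samples -0.033 to 0.029), and with the replicate block 749 and 319 genes were called, 1057 of the block's 1068 in common with the main calls. Hoxd4 ran from -0.14 to 0.15 and Hoxd9 from -0.32 to 0.037 on the log2 scale when samples were left out, crossing 0; neither was called. The calls of Fn1, Plod2, and Mfge8 were lost without TMM, and that of Gpc1 without EASCs sample 1. The cause was not tested. Genes at a few counts a sample are limited by depth, and HoxA could not be measured.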
